A study of Mus musculus with 20 samples.

Results

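Integrins are receptors of the cell surface that hold cells to the extracellular matrix, and each is a pair of 1 alpha and 1 beta subunit. The alpha subunit largely sets the ligand: alpha1 binds collagens, alpha3, alpha6 and alpha7 bind laminins, and alpha5, alpha8 and alphav bind ligands such as fibronectin, nephronectin and vitronectin that carry an Arg-Gly-Asp motif. The beta1 subunit pairs with all 7 of these alpha subunits, whereas beta3 and beta5 pair with alphav. In the kidney, alpha3 beta1 anchors podocytes to the glomerular basement membrane, and alpha8 beta1 is a receptor of mesangial and smooth muscle cells.

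The mRNAs of these 10 subunits (Itga1, Itga3, Itga5, Itga6, Itga7, Itga8, Itgav, Itgb1, Itgb3 and Itgb5) were chosen by gene symbol among the 34255 genes of the deposited read count table. The choice was made with earlier results of these data known. The libraries came from healthy young adult male wild-type mice of the strain C57BL6/OlaHsd that received no treatment. The 4 microvascular compartments were cut with a laser from sections of the renal cortex, namely arterioles, glomeruli, post-capillary venules and peritubular capillaries, and sections of whole kidney were the reference. Each of the 5 groups held 4 libraries, which the labels call biological replicates. Libraries are named below by the number in their column (93, 96, 98 or 100), as in arteriole 96, and a shared number was not treated as a shared mouse.

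Levels are given in CPM, read counts scaled to the size of the library after trimmed mean of M values (TMM) normalization. The library method reads each transcript near its 3′ end, so that a count does not grow with transcript length. Other differences between genes in how reads were captured and assigned were not checked. Rankings and shares of different genes by level are therefore descriptions. Total counts ranged from 4639090 to 12283098 per library. Between 11339 and 14164 genes were detected in a microdissected library and between 18272 and 20474 in a whole kidney library. In the comparison with whole kidney, all 20 libraries and 13813 genes were fitted, and a call needed a false discovery rate (FDR) under 0.05 together with a log2 fold change beyond 1 in either direction. The 4 compartments were compared with each other in a fit of the 16 microdissected libraries over 12179 genes, at an FDR under 0.05. All 10 subunits passed the low-count filter of both fits. Microdissected libraries were made with a low-input protocol and more amplification cycles than whole kidney libraries, so that preparation and compartment cannot be told apart in the comparison with whole kidney.

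The marker genes of the compartments were examined first. The summed level of 8 smooth muscle genes was 18557 to 45640 CPM in arterioles, 849 to 1613 CPM in glomeruli, 937 to 1106 CPM in venules, 187 to 650 CPM in capillaries and 271 to 322 CPM in whole kidney. The 9 podocyte genes summed to 8022 to 9180 CPM in glomeruli, 1108 to 1763 CPM in arterioles and 243 to 280 CPM in whole kidney. The 5 mesangial genes summed to 670 to 963 CPM in glomeruli and to 541 to 1097 CPM in arterioles, against 89.8 to 109 CPM in whole kidney. The 10 endothelial genes summed to 2952 to 5007 CPM in arterioles and 2809 to 3630 CPM in glomeruli. They summed to 632 to 966 CPM in venules, 413 to 1508 CPM in capillaries and 383 to 459 CPM in whole kidney. None of these genes was called in capillaries or venules, where 0.0869% and 0.203% of all genes tested were called higher and 0.00724% and 0.0217% lower. Their median log2 fold change was 0.54 in capillaries and 1.13 in venules, beside 0.18 and 0.19 over all genes tested. The 8 proximal tubule genes summed to 62261 to 116750 CPM in capillaries, above the 34414 to 35836 CPM of whole kidney, and to 22961 to 28653 CPM in venules. They summed to 7821 to 15527 CPM in arterioles and 5437 to 7514 CPM in glomeruli. Most of these tubule sums in capillaries, venules and whole kidney was Kap, at 71437, 17045 and 28754 CPM on average. The order of venules and whole kidney was thus that of Kap. By mean, Slc34a1, Slc5a2, Miox and Gatm were higher in venules than in whole kidney, and Lrp2, Cubn and Slc22a6 were lower. The 6 fibroblast genes summed to 2007 to 4750 CPM in arterioles, 1002 to 2711 CPM in venules and 276 to 300 CPM in whole kidney. In none of these lists was a gene at 0 in all 4 libraries of a group.

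Itgb1 was the most abundant subunit in arterioles and glomeruli. Itga1 was the most abundant alpha subunit by mean in every group. By mean, Itga7 and Itgb3 were highest in arterioles, Itga8 was high in both arterioles and glomeruli, Itga3 and Itgb5 were highest in glomeruli, and Itga6 was lowest in arterioles. Against whole kidney, 5 of the 10 subunits were called higher in arterioles, where 5.78% of all genes tested were, and 1 was called lower, where 5.50% were. In glomeruli 3 subunits were called higher, against 1.59% of genes, and 0 lower, against 1.47%. In peritubular capillaries 0 subunits were called higher or lower, where 0.0869% and 0.00724% of genes were. In venules likewise 0 were called, where 0.203% of genes were higher and 0.0217% lower. The 4 comparisons share the whole kidney libraries.

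**Figure D1:**
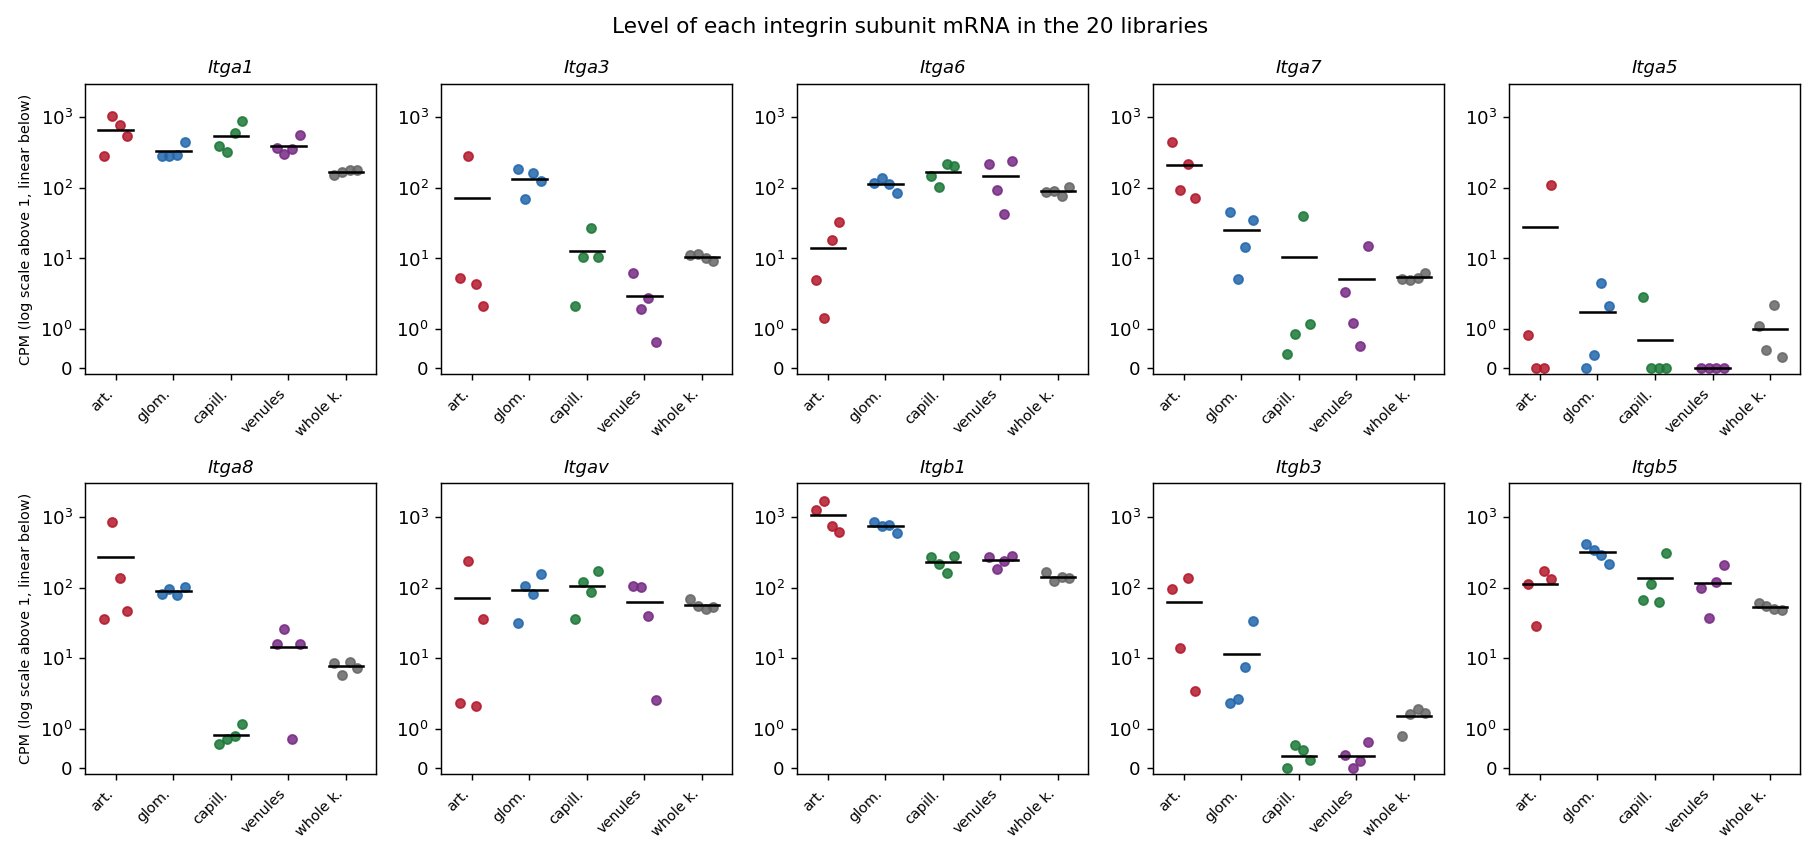
Level of each subunit in CPM (log scale above 1, linear below) in the 20 libraries. Points are libraries and lines are means of 4 libraries in arterioles (art.), glomeruli (glom.), peritubular capillaries (capill.), venules and whole kidney (whole k.). The 4 arteriole libraries of Itgb1 lie between 620 and 1710 CPM, above every capillary, venule and whole kidney library.

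The beta subunits differed most clearly for Itgb1, the common partner of the 7 alpha subunits (ENSMUSG00000025809, chromosome 8 from 128685654 to 128733200, plus strand; coordinates here are of GRCm38, GENCODE M21). Its level was 1263, 1710, 744 and 620 CPM in arterioles 93, 96, 98 and 100, and 849, 757, 767 and 596 CPM in glomeruli 93, 96, 98 and 100. The 4 capillary libraries held 271, 219, 161 and 282 CPM, the venules 273, 186, 236 and 281 CPM, and whole kidney 168, 126, 142 and 136 CPM. Every arteriole and glomerulus library thus lay above every library of the other 3 groups. Against whole kidney, Itgb1 was higher in arterioles by a log2 fold change of 2.92 (SE 0.40, FDR 2.17e-06) and in glomeruli by 2.38 (SE 0.39, FDR 0.000147). It was higher in arterioles than in capillaries by 2.22 on the log2 scale (SE 0.43, FDR 0.000539) and than in venules by 2.15 (SE 0.43, FDR 0.00179). Glomeruli exceeded capillaries by 1.67 (SE 0.43, FDR 0.0134) and venules by 1.60 (SE 0.42, FDR 0.0472). The difference between arterioles and glomeruli, 0.55 on the log2 scale (SE 0.42, FDR 0.528), and that between capillaries and venules, -0.07 (SE 0.41, FDR 0.996), were not called. Both calls of Itgb1 against whole kidney remained in each of the 8 fits that left out 1 library. In bulk libraries such as these, more cells of a type and more mRNA per cell cannot be told apart. The smooth muscle, podocyte, mesangial and endothelial marker sums above were likewise higher in arterioles and glomeruli than in whole kidney. Not all of them had the order of Itgb1. Smooth muscle sums of venules lay within the range of glomeruli, and podocyte sums were higher in glomeruli than in arterioles. The part of these cell types in the result was not tested.

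Itgb3 encodes the partner of alphav in vessels and of alphaIIb in platelets (ENSMUSG00000020689, chromosome 11 from 104608000 to 104670476, plus strand). Its level was 96.8, 13.8, 138 and 3.39 CPM in arterioles 93, 96, 98 and 100, and 2.30, 2.65, 7.40 and 33.7 CPM in the glomeruli in the same order. Whole kidney held 0.810 to 1.92 CPM, venules 0 to 0.670 CPM and capillaries 0 to 0.590 CPM, or at most 5 counts per venule or capillary library. All arteriole and glomerulus libraries lay above all others, but arterioles ranged widely. Itgb3 was higher in arterioles than in whole kidney by a log2 fold change of 5.37 (SE 1.79, FDR 0.0455), and that call was lost in 6 of the 8 fits that left out 1 library (FDR 0.0286 to 0.113), namely without arteriole 93 or 98 or any of the 4 whole kidney libraries. It was lost as well when library totals alone were used for scaling (FDR 0.0571), without the low-count filter (FDR 0.0923) and with the replicate number as a block (FDR 0.0584). It was also called in arterioles against capillaries (FDR 0.0220) and against venules (FDR 0.0397). In glomeruli the log2 fold change of 2.92 (SE 1.60, FDR 0.412) was not called. The 6 platelet genes summed to 0.426, 268, 2.92 and 1.43 CPM in arterioles 93, 96, 98 and 100. Nearly all of the sum of arteriole 96 was 1 gene, Pf4, at 267.5 CPM. Gp1ba and Treml1 were at 0 in all 4 arterioles, and only 2 of the 6 platelet genes passed the low-count filter. The 6 genes summed to 8.88 to 38.7 CPM in glomeruli, 0.185 to 32.9 CPM in venules, 0 to 2.21 CPM in capillaries and 5.83 to 8.41 CPM in whole kidney. Itga2b, which encodes alphaIIb, averaged 5.11 CPM in arterioles, 15.3 CPM in glomeruli, 42.8 CPM in venules and 9.09 CPM in whole kidney. The part of platelets in the Itgb3 level was not tested.

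Itgb5, the other partner of alphav measured here (ENSMUSG00000022817, chromosome 16 from 33829665 to 33949338, plus strand), held 413, 340, 295 and 216 CPM in glomeruli 93, 96, 98 and 100. Arterioles held 111, 28.5, 173 and 131 CPM, capillaries 67.1, 113, 61.8 and 309 CPM, venules 99.1, 36.6, 120 and 210 CPM, and whole kidney 47.6 to 61.5 CPM. The glomeruli lay above all whole kidney, arteriole and venule libraries, and capillary 100 lay within their range. Itgb5 was higher in glomeruli than in whole kidney by a log2 fold change of 2.57 (SE 0.66, FDR 0.0195). Without 1 library this call held in 1 of 8 fits, the one without glomerulus 100 (FDR 0.0322 to 0.0808 over the 8 fits). It did not differ significantly among the 4 compartments (FDR 0.267).

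The promoters of Itgb1 and Itga8 are shown because these 2 subunits were called higher in both arterioles and glomeruli. The windows are the 250 bases before the gene start, from RefSeq on GRCm38.p6, chr8:128685404-128685653 (plus strand) for Itgb1 and chr2:12301945-12302194 (minus strand) for Itga8, and capitals mark the GC box GGGCGG.
Itgb1: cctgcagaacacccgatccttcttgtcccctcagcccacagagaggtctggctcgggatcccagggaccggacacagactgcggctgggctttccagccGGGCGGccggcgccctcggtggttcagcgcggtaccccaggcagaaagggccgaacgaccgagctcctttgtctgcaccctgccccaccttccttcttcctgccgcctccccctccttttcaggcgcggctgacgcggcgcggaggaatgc
Itga8: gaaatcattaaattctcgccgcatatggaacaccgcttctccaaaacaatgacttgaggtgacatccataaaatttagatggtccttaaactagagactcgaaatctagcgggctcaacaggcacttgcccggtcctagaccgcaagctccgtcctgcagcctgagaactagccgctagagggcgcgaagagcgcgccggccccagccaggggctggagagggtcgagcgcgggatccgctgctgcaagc
RefSeq windows were matched for 7 of the 10 subunits, 8 windows in all. GGGCGG on either strand was found in 5 of these 8 windows and in 32.7% of 32851 windows of the same length from all promoters. The CArG box, the site known to bind serum response factor in smooth muscle genes, was searched on both strands and was found in 0 of the 8 windows and in 1.47% of all windows. The Itgb1 window held 1 GGGCGG and the Itga8 window held 0. A match of these letters is a description of the window only.

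Among the alpha subunits, Itga1, the collagen and laminin receptor of smooth muscle, mesangium and capillary endothelium, took the largest mean share of the counts in every group (ENSMUSG00000042284, chromosome 13 from 114953096 to 115101964, minus strand). Its level was 282, 1052, 774 and 535 CPM in arterioles 93, 96, 98 and 100, and 389, 324, 600.5 and 887 CPM in the capillaries. Venules held 366, 301, 358 and 563 CPM, glomeruli 285, 285, 292 and 450 CPM, and whole kidney 152 to 180 CPM. Every microdissected library lay above every whole kidney library. The log2 fold change against whole kidney was 1.96 in arterioles (SE 0.43, FDR 0.00205), which was called also without each library in turn. It was 1.70 in capillaries (SE 0.43, FDR 0.131), 1.23 in venules (SE 0.42, FDR 0.293) and 0.95 in glomeruli (SE 0.42, FDR 0.243), which were not called. When only the 8 libraries compared were fitted, capillaries (FDR 0.00595) and venules (FDR 0.00885) were called as well. The 4 compartments did not differ significantly (FDR 0.355). Pelo lies within the Itga1 gene on the same strand and was counted at 1 to 565 reads per library.

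**Figure D2:**
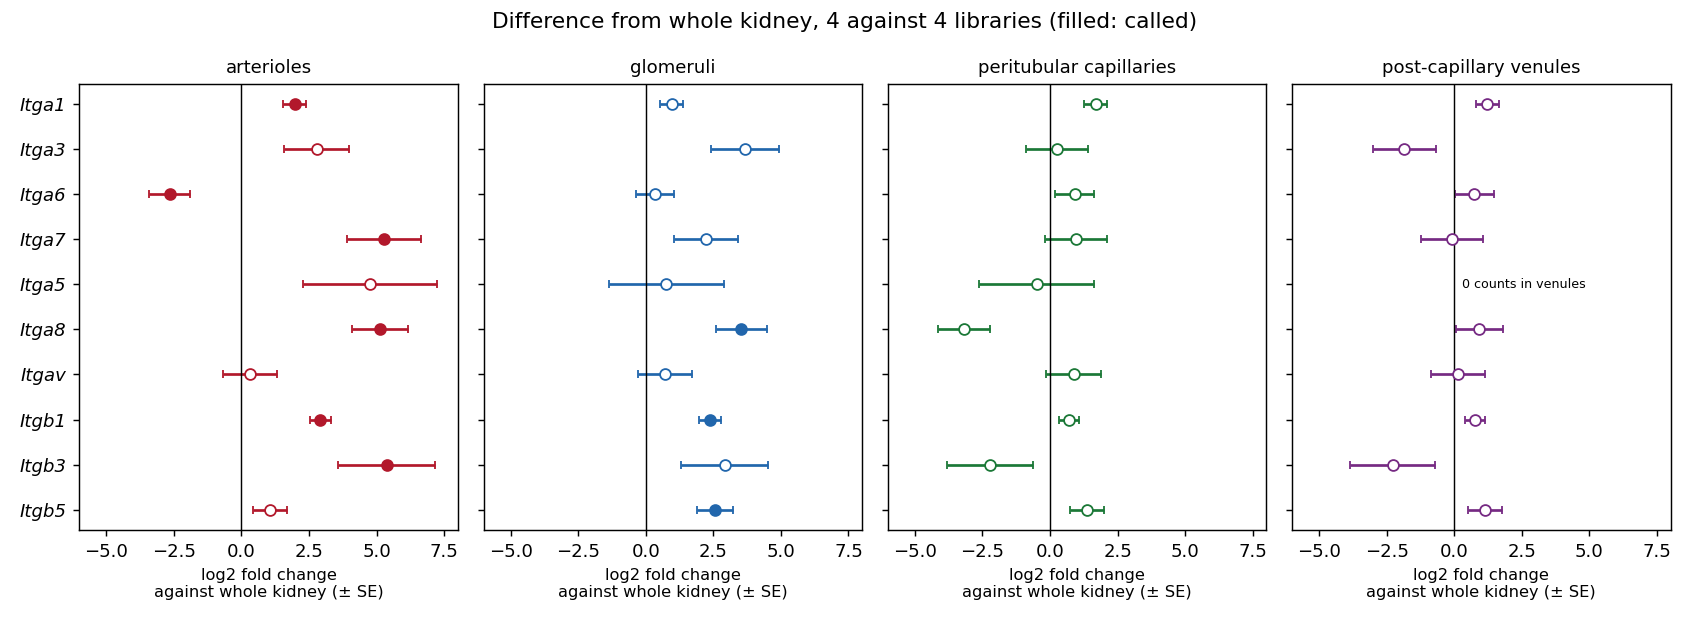
Log2 fold change of each subunit against whole kidney, with its standard error, for 4 against 4 libraries in each of the 4 compartments. Filled points are called, which are 6 in arterioles, 3 in glomeruli and 0 in capillaries and venules; Itga5 in venules has no point because all 4 venule libraries held 0 counts.

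Of the laminin receptor subunits, Itga7, known from skeletal and smooth muscle, was the arteriolar one (ENSMUSG00000025348, chromosome 10 from 128933818 to 128958282, plus strand). Its level was 448, 94.5, 220 and 71.2 CPM in arterioles 93, 96, 98 and 100. Glomeruli held 46.3, 5.19, 14.6 and 34.7 CPM, capillaries 0.373, 0.885, 39.6 and 1.17 CPM, venules 3.36, 1.22, 0.556 and 15.1 CPM, and whole kidney 4.95 to 6.23 CPM. Every arteriole lay above every other library, and capillary 98 stood apart from the other capillaries. Itga7 was higher in arterioles than in whole kidney by a log2 fold change of 5.27 (SE 1.36, FDR 0.00993), than in capillaries by 4.31 (SE 1.39, FDR 0.0391) and than in venules by 5.35 (SE 1.47, FDR 0.0276). The call against whole kidney remained without each library in turn, with a log2 fold change of 4.53 without arteriole 93. The difference from glomeruli, 3.05 on the log2 scale (SE 1.31, FDR 0.196), was not called. Exons of Mettl7b overlap Itga7 on the other strand. The strand setting of the counting is unknown, so that how reads within this overlap were assigned is unknown. Mettl7b was counted at 29 to 1438 reads in arterioles, 36 to 247 in glomeruli and 1638 to 2111 in whole kidney. It was counted at 609 to 2690 reads in venules and 1551 to 5560 in capillaries. Itga7 held 3, 6, 340 and 6 counts in capillaries 93, 96, 98 and 100. The part of Mettl7b in the Itga7 level was not tested. The smooth muscle sums above were likewise highest in arterioles, and their part was not tested.

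Itga6, the laminin receptor subunit of epithelium and endothelium, had the opposite direction in arterioles (ENSMUSG00000027111, chromosome 2 from 71745616 to 71858416, plus strand). Its level was 4.90, 1.45, 17.98 and 32.5 CPM in arterioles 93, 96, 98 and 100, against 116, 139, 115 and 84.5 CPM in glomeruli. Capillaries held 147, 104, 215 and 205 CPM, venules 221, 92.98, 42.8 and 239 CPM, and whole kidney 76.4 to 103 CPM. The highest arteriole lay below the lowest library of all other groups. Itga6 was lower in arterioles than in whole kidney, with a log2 fold change of -2.65 (SE 0.76, FDR 0.0206), than in capillaries, with -3.56 (SE 0.90, FDR 0.00714), and than in venules, with -3.39 (SE 0.89, FDR 0.0202). Against glomeruli the log2 difference of -2.99 (SE 0.87, FDR 0.0606) was not called. The call against whole kidney was lost without whole kidney 100 (FDR 0.0529) and when only the 8 libraries compared were fitted (FDR 0.0909), and without arteriole 100 the value was -3.46. The proximal tubule genes summed to 7821 to 15527 CPM in arterioles and were thus also below whole kidney there; their part in the Itga6 level was not tested.

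Itga3, the laminin receptor subunit of podocytes (ENSMUSG00000001507, chromosome 11 from 95044474 to 95076801, minus strand), was at 185, 68.7, 161 and 124 CPM in glomeruli 93, 96, 98 and 100. Arterioles held 5.33, 279, 4.38 and 2.14 CPM, capillaries 2.11, 10.6, 27.0 and 10.6 CPM, venules 6.27, 1.94, 2.78 and 0.670 CPM, and whole kidney 9.35 to 11.5 CPM. All glomeruli lay above every library except arteriole 96, which held the highest value of all 20 libraries. The log2 fold change of 3.67 in glomeruli against whole kidney (SE 1.26, FDR 0.101) was not called by the main test. It was called by DESeq2 (FDR 0.0169), by the version 4 form of the quasi-likelihood test (FDR 0.00358) and in the fit of only the 8 libraries compared (FDR 6.26e-05). Itga3 differed among the 4 compartments (FDR 0.0225), and this call was lost without glomerulus 93, glomerulus 98 or venule 96 (FDR 0.0688, 0.0564 and 0.0504). In arterioles the log2 fold change against whole kidney was 2.78 (SE 1.21, FDR 0.104) and, over the fits that left out 1 library, ranged from -1.42 to 3.19. The podocyte sums above were highest in glomeruli, and their part was not tested.

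Among the receptor subunits for Arg-Gly-Asp ligands, Itga8, the nephronectin receptor subunit of mesangial and smooth muscle cells, was high in arterioles and glomeruli (ENSMUSG00000026768, chromosome 2 from 12106632 to 12301922, minus strand). Its level was 36.5, 854, 137 and 46.2 CPM in arterioles 93, 96, 98 and 100, and 80.4, 97.1, 79.2 and 101 CPM in glomeruli. Venules held 15.9, 25.8, 0.741 and 15.9 CPM, whole kidney 5.87 to 8.84 CPM, and capillaries 0.621 to 1.17 CPM, or 5 to 7 counts per library. Every arteriole and glomerulus lay above every other library, and arteriole 96 stood far above the rest. Itga8 was higher than in whole kidney by a log2 fold change of 5.13 in arterioles (SE 1.03, FDR 0.000802) and of 3.54 in glomeruli (SE 0.96, FDR 0.0296). Without arteriole 96 the first became 3.25 (FDR 0.0592) and was not called. The second was lost in each of the 8 fits without 1 library (FDR 0.0612 to 0.113), although its value stayed between 3.43 and 3.61. Between compartments, Itga8 was higher than in capillaries by 8.31 on the log2 scale in arterioles (SE 1.29, FDR 2.00e-05) and by 6.73 in glomeruli (SE 1.21, FDR 0.000286). It was higher in arterioles than in venules by 4.19 (SE 1.06, FDR 0.0157). Arterioles and glomeruli differed by 1.58 (SE 0.96, FDR 0.386), which was not called, and arterioles 93 and 100 lay below every glomerulus. Its log2 fold change in capillaries against whole kidney, -3.19 (SE 0.97, FDR 0.251), was called by DESeq2 (FDR 0.0273) and not by the main test. Exons of E030013I19Rik overlap Itga8 on the other strand and were counted at 0 to 285 reads in glomeruli and at most 4 reads in arterioles. The mesangial sums above were highest in the same 2 compartments, and their part was not tested.

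Itgav, the vitronectin receptor subunit (ENSMUSG00000027087, chromosome 2 from 83724397 to 83806916, plus strand), showed no call in any comparison. Its level was 2.34, 241, 2.14 and 35.9 CPM in arterioles 93, 96, 98 and 100, and 31.7, 105, 81.0 and 157 CPM in glomeruli. Capillaries held 36.4, 121, 88.1 and 171 CPM, venules 106, 104, 40.0 and 2.545 CPM, and whole kidney 50.6 to 69.5 CPM. All 4 microdissected groups overlapped whole kidney, and the log2 fold changes were 0.31 in arterioles (SE 1.00, FDR 0.856), 0.72 in glomeruli (SE 1.00, FDR 0.887), 0.87 in capillaries (SE 1.00, FDR 0.849) and 0.15 in venules (SE 1.00, FDR 1.00). The FDR of a difference among the 4 compartments was 0.970. Standard errors of this size limit the differences that could be detected. Gm13684 overlaps exons of Itgav on the other strand and was counted at 0 in all 20 libraries.

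Itga5, the fibronectin receptor subunit of endothelium and smooth muscle (ENSMUSG00000000555, chromosome 15 from 103344286 to 103366763, minus strand), was near the limit of detection. Arterioles 93, 96 and 98 held 4, 0 and 0 counts, whereas arteriole 100 held 614 counts, or 110 CPM. Glomeruli held 0 to 4.52 CPM, capillaries 0 to 2.86 CPM and whole kidney 0.283 to 2.19 CPM. All 4 venule libraries held 0 counts, where 3 counts would be 0.336 to 0.556 CPM. No difference against whole kidney was called (FDR 0.175 in arterioles), nor among the 4 compartments (FDR 0.0683), and any arteriolar difference rested on 1 library. The log2 fold change in arterioles, 4.74, ranged from -1.85 to 5.43 over the fits that left out 1 library.

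Groups that did not overlap whole kidney were counted as well. All 4 arteriole libraries lay above all 4 whole kidney libraries for 5 of the 10 subunits, against 8.45% of all genes tested. This held for 6 subunits in glomeruli, against 14.6% of genes, for 3 in capillaries, against 6.08%, and for 2 in venules, against 5.81%. The 3 subunits in capillaries were Itga1, Itga6 and Itgb5, and the 2 in venules were Itga1 and Itgb1. All 4 libraries lay below every whole kidney library for 1 subunit in arterioles (Itga6), against 28.0% of genes, for 0 in glomeruli, against 18.0%, for 2 in capillaries (Itga8 and Itgb3), against 18.3%, and for 3 in venules (Itga3, Itga5 and Itgb3), against 14.4%. In capillaries 3 subunits had an unadjusted p under 0.05 (Itga1, Itga8 and Itgb5), against 12.4% of genes, and DESeq2 called 2 (Itga1 higher and Itga8 lower). In venules 3 had an unadjusted p under 0.05 (Itga1, Itga5 and Itgb1), against 9.36% of genes, and DESeq2 called 0. The shares for the unadjusted p are of the main test, and the shares of all genes that DESeq2 called were not counted. The median log2 fold change of the 10 subunits was 2.85 in arterioles, 2.30 in glomeruli, 0.79 in capillaries and 0.44 in venules, beside 0.22, 0.25, 0.18 and 0.19 over all genes tested.

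Among the 4 compartments themselves, 6 of the 10 subunits differed, against 11.4% of all genes tested: Itga8 (FDR 2.04e-05), Itgb1 (FDR 0.000124), Itga7 (FDR 0.00854), Itgb3 (FDR 0.00877), Itga3 (FDR 0.0225) and Itga6 (FDR 0.0310). The Itga7 call was lost without arteriole 93 (FDR 0.0902), and the Itga6 call was lost in 8 of the 16 fits that left out 1 library (FDR 0.0128 to 0.0707). The calls of Itga8, Itgb1 and Itgb3 remained in all 16. In the 6 pairwise comparisons there were 13 calls. Arterioles differed from capillaries in 5 subunits, against 11.2% of genes, and from venules in 5, against 4.38%; in both cases these were Itga6, Itga7, Itga8, Itgb1 and Itgb3. Glomeruli differed from capillaries in 2 (Itga8 and Itgb1), against 4.49% of genes, and from venules in 1 (Itgb1), against 1.22%. Arterioles and glomeruli differed in 0, against 2.19% of genes, where 4 subunits had an unadjusted p under 0.05, against 19.0% of genes, and DESeq2 called 2 (Itga6 and Itga7). Capillaries and venules differed in 0, against 0.411% of genes, where 1 subunit had an unadjusted p under 0.05, against 11.2% of genes, and DESeq2 called 1 (Itga8). All shares in this comparison of compartments are of the main test, and those of DESeq2 were not counted.

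**Figure D3:**
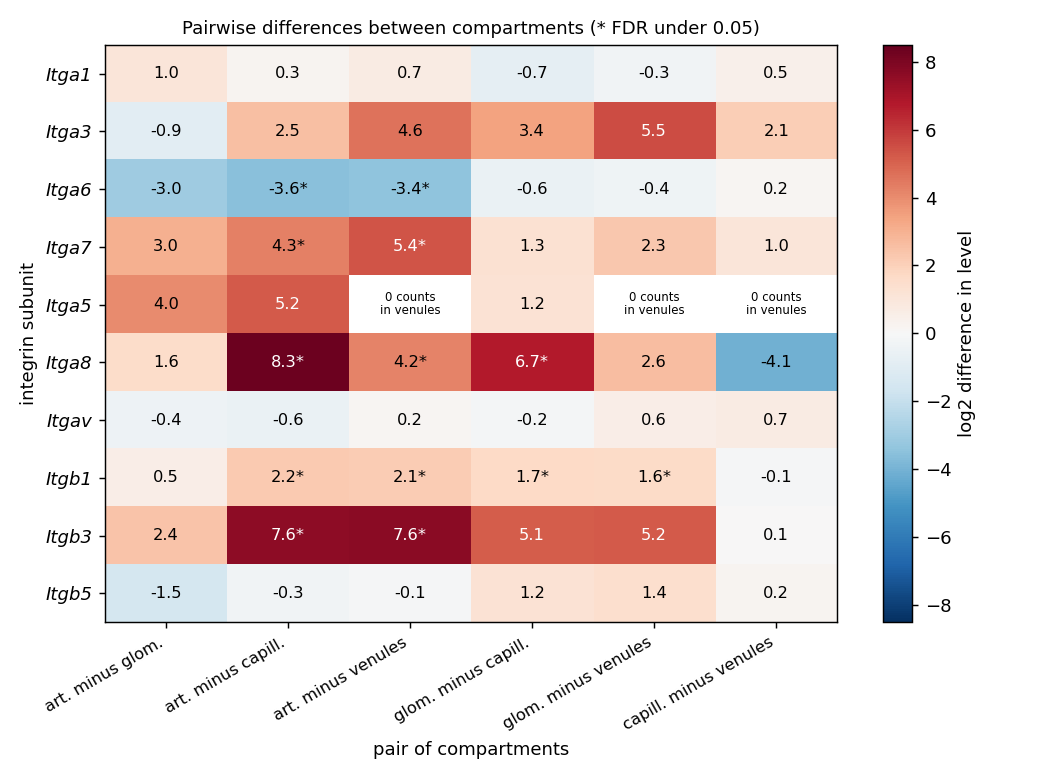
Log2 difference in level between each pair of compartments for the 10 subunits, from the fit of the 16 microdissected libraries; red is higher in the compartment named first and * marks an FDR under 0.05. The 13 marked cells lie in the pairs that set arterioles or glomeruli against capillaries or venules.

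A marker rule was also applied, by which the fitted log2 level of a gene was higher in 1 compartment than the average of the fitted log2 levels of the other 3 (FDR under 0.05) and the gene reached at least 10 CPM in all 4 of its libraries. In arterioles 3 subunits passed, against 4.76% of genes: Itga8 (log2 difference 4.69, FDR 9.23e-06), Itga7 (4.24, FDR 0.00138) and Itgb1 (1.64, FDR 0.000342). In glomeruli 2 passed, against 1.48% of genes: Itga3 (3.28, FDR 0.0303) and Itga8 (2.59, FDR 0.0249). Itga8 thus passed in both, although its mean of 89.5 CPM in glomeruli was not above the 94.7 CPM over the other 12 libraries, which include arteriole 96. In capillaries and venules 0 subunits passed, against 3.24% and 0.230% of genes.

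The make-up of the alpha subunit mRNA was described by shares of counts. Itga1 made up 52.3% ± 15.6 (SD, n = 4) of the counts of the 7 alpha subunits in arterioles, 41.3% ± 4.07 in glomeruli, 64.1% ± 5.31 in capillaries, 63.96% ± 12.9 in venules and 49.8% ± 3.49 in whole kidney. In glomeruli Itga3 followed with 17.3% ± 7.08, Itga6 with 14.9% ± 4.51, Itgav with 11.6% ± 5.47 and Itga8 with 11.5% ± 1.59. In arterioles Itga7 made up 22.2% ± 24.3 and Itga8 13.995% ± 13.6, whereas Itga6 made up 1.54% ± 1.69. The arterioles were not alike in this: Itga7 was 57.4% of the counts in arteriole 93, Itga8 was 33.9% in arteriole 96 and Itga5 was 13.2% in arteriole 100. In capillaries and venules Itga6 was the next most abundant after Itga1, with 20.6% ± 4.08 and 21.7% ± 9.88, and Itga8 made up 0.104% ± 0.0208 and 2.29% ± 1.95. Whole kidney had 26.2% ± 2.48 of Itga6 and 16.8% ± 2.72 of Itgav. These shares are descriptions and were not tested.

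**Figure D4:**
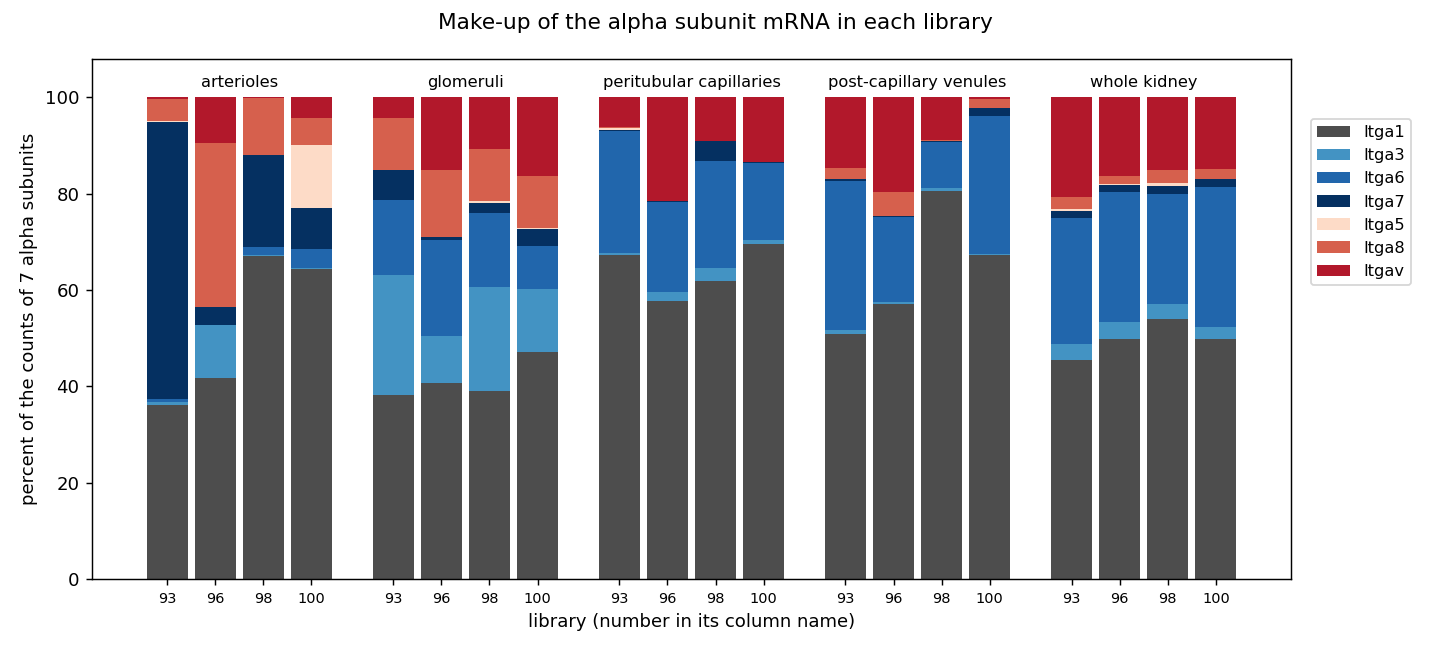
Share of each alpha subunit in the counts of the 7 alpha subunits, in percent, for each of the 20 libraries. Itga6 is at most 3.90% of an arteriole library and at least 8.86% of every other library, and Itga3 is 9.81% to 24.9% of the glomerulus libraries.

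The other integrin subunits, 17 genes of which 13 were tested against whole kidney, gave 4 calls in arterioles, all higher, against 5.78% of all genes. They gave 0 calls in glomeruli, capillaries and venules, where 1.59%, 0.0869% and 0.203% of all genes were called higher. The shares called lower were 1.47%, 0.00724% and 0.0217% in the same order. Itga9, which binds tenascin and osteopontin, was at 308 ± 175 CPM in arterioles (SD, n = 4) and 18.7 ± 3.91 CPM in whole kidney (log2 fold change 4.05, FDR 0.00154). Itga4, the leukocyte receptor subunit for VCAM1, was at 67.5 ± 60.6 CPM in arterioles and 2.02 ± 0.764 CPM in whole kidney (5.05, FDR 0.0387), and at 69.9 ± 38.5 CPM in glomeruli (5.10, FDR 0.0742, not called). The 6 leukocyte genes summed to 128 to 561 CPM in arterioles and 132 to 182 CPM in whole kidney. Itgb4, the partner of alpha6 in hemidesmosomes, ranged from 0.426 to 360 CPM in arterioles against 2.19 to 3.92 CPM in whole kidney (5.38, FDR 0.0322). Itga10, a collagen receptor subunit, ranged from 0 to 204 CPM in arterioles against 0.756 to 1.04 CPM (6.26, FDR 0.0479). Of the 10 tested among the 4 compartments, 4 differed, against 11.4% of genes: Itga10 (FDR 0.00196), Itgb4 (FDR 0.00479), Itga9 (FDR 0.0141) and Itgb6 (FDR 0.0326). Itgb6, the epithelial partner of alphav, was highest in capillaries, at 160 ± 94.2 CPM against 8.39 ± 15.3 CPM in arterioles, beside the high proximal tubule sums of capillaries. Itgax and Itga2 were at or under 5.49 CPM on average in every group.

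Of the adaptors that join integrins to actin, 12 of 24 tested were called higher in arterioles, against 5.78% of all genes, and 0 lower, against 5.50%. In glomeruli 5 of 24 were called higher, against 1.59%, in venules 1, against 0.203%, and in capillaries 0, against 0.0869%. Among the 4 compartments 9 of 24 differed, against 11.4% of genes. Tln2 and Tns1 were highest in capillaries by mean, at 190 and 1409 CPM against 31.4 and 1185 CPM in arterioles (FDR among compartments 0.164 and 0.0590, not called). Flna, an actin crosslinker that binds beta tails, was at 8049 ± 4349 CPM in arterioles, 452 ± 113 CPM in glomeruli, 256 ± 105 CPM in venules and 84.9 ± 9.59 CPM in whole kidney, with log2 fold changes of 6.57 (FDR 4.93e-14), 2.41 (FDR 2.29e-05) and 1.59 (FDR 0.0236). Tln1 (talin), which activates integrins, was higher by 3.25 in arterioles (FDR 4.17e-07) and 2.30 in glomeruli (FDR 0.000241). Kank2, a talin-binding protein, was higher by 5.34 (FDR 1.69e-06) and 2.85 (FDR 0.00635). Called higher in arterioles and not called in glomeruli were Ilk, the integrin-linked kinase (3.55, FDR 0.00209), its partner Lims2 (3.77, FDR 0.00123), Zyx, a protein of mature adhesions (5.04, FDR 0.000398), and Tgfb1i1, a paxillin relative (5.27, FDR 0.000388). Between arterioles and glomeruli themselves these 4 differed by 1.99 to 3.04 on the log2 scale, which was not called (FDR 0.0686 to 0.161). The median log2 fold change of the adaptors was 1.97 in arterioles and 1.57 in glomeruli, beside 0.22 and 0.25 over all genes. Several adaptors are also abundant in smooth muscle, whose marker sum was likewise highest in arterioles, and its part was not tested.

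Of 7 membrane proteins that associate with integrins, Cd151, the tetraspanin partner of the laminin-binding integrins, was higher than whole kidney by 1.97 in arterioles (FDR 0.00450) and 2.10 in glomeruli (FDR 0.00590). Cd81 was higher by 1.28 (FDR 0.0174) and 1.45 (FDR 0.0154) in the same compartments. Cd63 was lower in glomeruli, with a log2 fold change of -1.34 (FDR 0.0111). Cav1, the caveolar protein, differed among the compartments (FDR 0.0196) and was at 161 ± 89.3 CPM in arterioles and 17.0 ± 4.96 CPM in whole kidney (3.24, FDR 0.0509, not called). Among the 4 compartments 3 of the 7 differed, namely Cd151, Cd63 and Cav1, against 11.4% of genes. Cd47, Cd9 and Plaur were not called in any compartment, with log2 fold changes of -2.06 to 1.29.

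The ligands of the Arg-Gly-Asp and collagen receptors gave 9 calls of 21 tested in arterioles, 4 in glomeruli, 1 in venules and 0 in capillaries, all higher. The shares of all genes called higher were 5.78%, 1.59%, 0.203% and 0.0869% in the same order. Among the 4 compartments 11 of 20 ligands differed, against 11.4% of genes. Their median log2 fold change was 2.80 in arterioles and 1.07 in glomeruli. In arterioles Col1a1 was at 976 ± 532 CPM against 43.1 ± 2.30 CPM in whole kidney (4.50, FDR 5.38e-06), and it was the 1 ligand called in venules, at 379 ± 150 CPM (3.14, FDR 0.00686). Fn1 (fibronectin) was at 28.4 to 1092 CPM in arterioles against 12.6 to 20.7 CPM in whole kidney (4.94, FDR 0.000746). Fbln5 (3.41, FDR 3.62e-05) and Col3a1 (3.97, FDR 0.000278) were likewise called in arterioles. Mfge8, a ligand of alphav beta3 and alphav beta5, was higher by 3.80 in arterioles (FDR 9.14e-06) and 2.29 in glomeruli (FDR 0.00845). Hspg2 (perlecan) was higher by 4.61 (FDR 4.30e-06) and 2.56 (FDR 0.00932), and Col18a1 by 3.36 (FDR 6.93e-06) and 1.97 (FDR 0.00974). Npnt (nephronectin), the ligand of alpha8 beta1, was the fourth ligand called in glomeruli and was named after its value was seen: it was at 410 ± 94.9 CPM there and 105 ± 5.67 CPM in whole kidney (1.96, FDR 0.0428). The fibroblast sums above were highest in arterioles and venules, where Col1a1 was called, and their part was not tested.

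Of the laminin and collagen IV chains, the basement membrane ligands of alpha1, alpha3, alpha6 and alpha7, 4 of 16 tested were called higher in arterioles and 3 in glomeruli. The shares of all genes were 5.78% and 1.59%. Of these chains 0 were called lower in arterioles or glomeruli, against 5.50% and 1.47% of genes. In capillaries and venules 0 were called, where 0.0869% and 0.203% of genes were called higher and 0.00724% and 0.0217% lower. Lamb2 (laminin beta2) was at 1409 ± 514 CPM in arterioles, 438 ± 59.5 CPM in glomeruli, 16.3 ± 15.2 CPM in capillaries and 35.3 ± 2.90 CPM in whole kidney. Its log2 fold changes were 5.32 in arterioles (FDR 1.38e-08) and 3.63 in glomeruli (FDR 1.69e-05). Col4a1 was higher by 2.79 (FDR 0.000105) and 1.59 (FDR 0.0475), and Col4a2 by 3.70 (FDR 6.86e-06) and 1.95 (FDR 0.0208). Lama5 was higher in arterioles (4.29, FDR 0.00607), where its libraries ranged from 67.5 to 1278 CPM. Lamb1 was not called, with log2 fold changes of -1.81 to 0.37, and Col4a6 held 0 counts in all 4 arterioles.

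**Figure D5:**
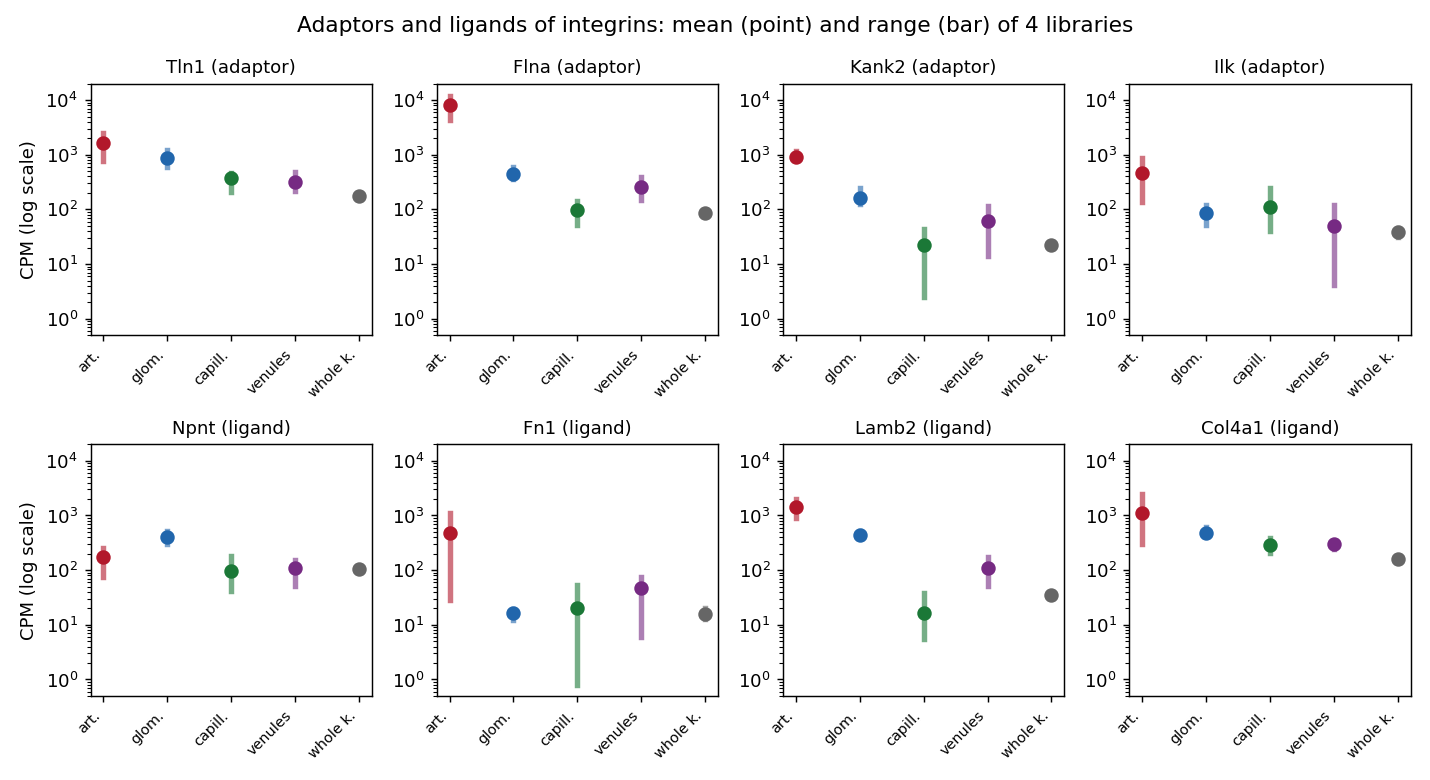
Level in CPM (log scale) of 4 adaptors and 4 ligands in the 5 groups; points are means and bars run from the lowest to the highest of 4 libraries. Flna lies at 8049 CPM on average in arterioles and 84.9 CPM in whole kidney, and Npnt is highest in glomeruli, at 410 CPM.

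For each subunit the 3 genes with the most similar levels were named by Pearson's r of log2 CPM over the 20 libraries, which share compartments and depth, so that r is a description only. For Itgb1 these were Myl6 (r 0.96), Epas1 (0.93) and Tln1 (0.93), and for Itga8 they were Tmod3 (0.95), Sspn (0.94) and Speg (0.91). For Itga7 they were Cavin1 (0.89), Vasn (0.87) and Hip1 (0.85), and for Itgb3 Carns1 (0.88), Rergl (0.87) and Tgfb1i1 (0.86). Itga6 was closest to Cacul1 (0.94), Wdtc1 (0.93) and Hint2 (0.93). Itga3 was closest to Endou (0.86), Tmem150c (0.83) and Tmem182 (0.81), and Itga1 to Timp3 (0.83), Srrm2 (0.80) and Ly6e (0.79). Itgav was closest to Socs4 (0.87), St3gal2 (0.81) and Hectd3 (0.77), Itgb5 to Meis2 (0.79), Rbm39 (0.78) and Nrp1 (0.76), and Itga5 to Pcdhb14 (0.86), Pitpnm3 (0.85) and Wdr90 (0.82).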

How the data were processed

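RNA was isolated from laser-microdissected compartments and whole kidney sections of mouse, and 3′ mRNA libraries (QuantSeq FWD) were sequenced as single-end reads. Per the study's methods, the authors used bbduk for trimming, STAR 2.7 for alignment to GRCm38.p6 and htseq-count (HTSeq 0.13) for counting by gene. The submitters' processing notes also name featureCounts and GRCm39, with no role given. The sources used here do not state whether counting used strand or molecular identifiers. Raw read counts, not normalized, were deposited by the authors as 1 table. Of its 168 value columns, 20 were used and 148 were not.

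The test was the version 3 form of the quasi-likelihood F test of edgeR 4.0.16 (R 4.3.3), with TMM and filterByExpr. FDR values were adjusted by Benjamini-Hochberg over every gene of a fit. DESeq2 1.42.0, other scalings, no filter, the version 4 form, fits of 8 libraries, a replicate block and leaving out each library were alternatives. The code was tested on simulated data. Recovery of changed genes was required only at a fixed spread, and at the spread estimated from these libraries only false calls were limited. The log2 CPM for r used a prior count of 2. The members, the lists and the tests were chosen with earlier results of these data known. Named list genes were up to 4 with the smallest p among the compartments and up to 3 more with the smallest p against whole kidney; 1 of them is not reported here. Floors (3 counts) cover counting error only. Each SE was derived from the F test and each SD from the libraries of a group, so that both include spread between libraries. Arterioles, glomeruli and venules were cut from a hematoxylin slide, and capillaries from a slide stained with isolectin B4; less area was cut for arterioles and capillaries.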

Additional observations from a re-analysis of the deposited data

Results flagged for a closer look

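In 8 of 49 sets of 4 libraries, 1 library stood apart from the other 3 by Dixon's criterion, applied to CPM. The criterion's rate of 1 in 20, about 2.45 of 49, holds for independent sets of normally distributed values. CPM need not be normal and the sets share libraries, so that the 8 cannot be compared with that rate. In arteriole 96 these were Itga3, at 279 CPM against 5.33 CPM in the next library, Itga8, at 854 CPM against 137 CPM, and Itgav, at 241 CPM against 35.9 CPM. In arteriole 100 it was Itga5, at 110 CPM against 0.853 CPM. In glomerulus 100 they were Itga1, at 450 CPM against 292 CPM, and Itgb3, at 33.7 CPM against 7.40 CPM. In capillary 93 it was Itga5, at 2.86 CPM where the other 3 held 0 counts, so that any count above 0 would have been flagged. In capillary 98 it was Itga7, at 39.6 CPM against 1.17 CPM. The cause was not tested.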

How the results depend on the processing

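Over the fits that left out 1 library, the number of subunits called was 4 to 6 in arterioles (6 with all libraries, 4 without whole kidney 100), 1 to 2 in glomeruli (3 with all, 2 only without glomerulus 100) and 0 to 0 in both capillaries and venules. It was 4 to 7 among the compartments (6 with all), 8 to 16 for the pairwise calls (13 with all, 8 without venule 93) and 3 to 6 for the marker rule (5 with all). DESeq2 called 2 subunits in capillaries and 22 pairwise differences, and the fits of 8 libraries called 1 subunit each in capillaries and venules. The shares of all genes called by DESeq2 and by the fits of 8 libraries were not counted, so that these counts have no background beside them. With the replicate block, Itgb3 in arterioles was no longer called (FDR 0.0584). The 40 same-numbered pairs of libraries had correlations of -0.0577 to 0.0722 in their deviations (median 0.00751). The 120 pairs with different numbers had -0.101 to 0.0490 (median -0.00267). Per the study's methods, arterioles, glomeruli and venules were cut from 1 slide per mouse and capillaries from another, so that compartments can share a mouse. The sources do not tie a number to a mouse. The numbers were therefore not taken to pair the samples, and the main tests treated libraries as independent. A library was closest to its own number in 39 of 80 comparisons, where 20 would be if the numbers had no bearing, which is a hint from the data and not from the design. Itgb3 in arterioles was also lost with library totals alone (FDR 0.0571) and with no filter (FDR 0.0923). Itga3 was gained in arterioles by DESeq2 (FDR 0.0143) and the version 4 form (FDR 0.0229), the latter of which also gained Itga5 there (FDR 0.0165). Among the compartments, Itga5 was gained with no filter (FDR 0.0274) and by the version 4 form (FDR 0.0261), and Itgb5 with library totals alone (FDR 0.0427). No called fold change of a subunit reversed its sign under any alternative run, and 16 of 446 values that were not called changed sign. The median log2 fold change of all genes in arterioles was 0.22 with TMM, 0.39 with RLE size factors and -0.32 with library totals alone. The causes were not tested. Standard errors near 1 on the log2 scale limit what 4 libraries per group can show.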
